A study of Mus musculus with 6 samples.

Results

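The Skint genes encode a mouse family of immunoglobulin-superfamily membrane proteins made by keratinocytes. They were examined as 8 listed members, Skint1, Skint3, Skint4, Skint5, Skint6, Skint7, Skint9 and Skint10, among 26814 gene symbols with counts. The members were taken by name as rows of the count table. The family was chosen by its measured counts in part, since the lower level of Skint10 in the KO libraries was already known. The comparison of KO with WT is therefore a description for the members, given by fold changes and standard errors. Calls of members are counted beside their share among all genes, and no support is drawn from them. The other Skint genes of the table, Skint2, Skint8 and Skint11, were not on the list and are given for comparison.

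RNA-Seq was carried out on dissected top lip tissue of adult female mice on the C57BL/6J background. There were 3 wild type (WT) mice and 3 mice carrying the targeted Gtf2ird1 tm1Hrd allele, labelled Gtf2ird1 KO, with 1 library per mouse and no further treatment. The allele is a targeted mutation of the whole animal, and the lip is a mixed tissue of epidermis, hair follicles, glands, dermis and muscle. In such bulk RNA, fewer cells of a type and less RNA per cell cannot be told apart.

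Skint proteins are related to the butyrophilins and the B7 family of T cell ligands. Skint1, the founding gene, is needed in the thymus for the maturation of the gamma-delta T cells that later settle in the epidermis. These are the dendritic epidermal T cells (DETC), which touch keratinocytes, sense damage and release growth factors during wound repair. Skint3 and Skint9 have been linked to the signals that keratinocytes give to DETC at wounds, and little is known of the other members singly.

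The libraries held between 20164081 and 29491767 counts on genes. Gtf2ird1 itself had 78.2, 70.2 and 70.7 CPM in WT libraries and 166, 162 and 144 CPM in KO libraries, so the targeted gene was higher in the libraries labelled KO, and counts per gene do not show which exons the reads came from. All directions below are therefore those of the labels. Without KO3, many more genes of the whole table passed an adjusted p of 0.05 than with it (16.2% lower and 16.9% higher, against 2.09% and 4.38%), so values without that library are given for the members that it moved. RNA of keratinocytes was present, since Krt5 lay between 4331 and 5372 CPM and Krt14 between 3488 and 4472 CPM over the 6 libraries. WT1 stood apart in keratins of mucosal epithelium, with 2805 CPM of Krt13 against 111 and 20.1 CPM in WT2 and WT3 and 22.5 to 77.3 CPM in the KO libraries. WT1 was also the lowest WT library for the Skint sum. Without it the log2 fold changes of Skint10, Skint9 and Skint6 were -1.71, -1.07 and -1.11, and the part of mucosal tissue in these values was not tested.

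The 11 Skint genes lie side by side on chromosome 4 (GRCm38), and the 8 members span 2.03 Mb, from 111972923 at the start of Skint7 to 113999503 at the end of Skint5. Skint7, Skint1, Skint4 and Skint3 are on the plus strand, while Skint9, Skint10, Skint6 and Skint5 are on the minus strand. Skint9 runs from 112385969 to 112433985 and Skint10 from 112711147 to 112774866, with Skint2 between them, and Skint3 runs from 112232245 to 112300468. Their promoters were compared because copies of a gene family often keep parts of their upstream sequence. In RefSeq, 12 promoters of the 11 genes were found, each with 250 bases before and 50 bases after a start site, and Skint4 had a pair of starts. The promoters of Skint9, Skint10 and Skint11 were alike, and no other Skint promoter held the longest run common to all 3 of them. They are shown 5′ to 3′ on the coding strand, with the run of 13 shared bases in capitals.
Skint9 (chr4:112433936-112434235, minus strand): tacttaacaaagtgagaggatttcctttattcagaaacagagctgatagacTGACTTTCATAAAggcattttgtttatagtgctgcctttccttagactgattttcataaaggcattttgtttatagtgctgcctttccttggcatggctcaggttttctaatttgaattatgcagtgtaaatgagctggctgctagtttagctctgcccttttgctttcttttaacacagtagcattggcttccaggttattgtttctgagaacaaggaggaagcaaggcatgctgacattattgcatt
Skint10 (chr4:112774812-112775111, minus strand): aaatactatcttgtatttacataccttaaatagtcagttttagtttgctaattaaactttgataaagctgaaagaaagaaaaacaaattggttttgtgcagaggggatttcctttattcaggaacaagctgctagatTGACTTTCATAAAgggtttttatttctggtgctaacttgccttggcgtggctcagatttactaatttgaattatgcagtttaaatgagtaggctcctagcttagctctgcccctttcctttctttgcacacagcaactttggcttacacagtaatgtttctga
Skint11 (chr4:114163134-114163433, plus strand): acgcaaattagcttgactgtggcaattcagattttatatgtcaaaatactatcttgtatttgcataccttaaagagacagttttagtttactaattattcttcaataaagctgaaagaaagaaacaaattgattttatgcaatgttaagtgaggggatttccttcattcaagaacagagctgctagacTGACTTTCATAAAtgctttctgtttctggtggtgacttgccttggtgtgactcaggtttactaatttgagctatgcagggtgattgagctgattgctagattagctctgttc

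Skint10 and Skint11 aligned over 256 columns with 82.0% identity, Skint9 and Skint10 over 168 columns with 82.1%, and Skint9 and Skint11 over 114 columns with 81.6%. The run in capitals was found on either strand of 3 of 32851 mouse promoters of this length, those of Skint9, Skint10 and Skint11. A second group was formed by Skint2, Skint3, Skint5, Skint6 and the second start of Skint4. Within it, Skint5 and Skint6 aligned over all 300 columns with 89.7% identity. Skint3, the member with the most counts, and Skint4 aligned over 244 columns with 77.5% identity, and their longest shared run, in capitals below, was found in 2 of the 32851 promoters. They are printed to set beside the first group.
Skint3 (chr4:112231995-112232294, plus strand): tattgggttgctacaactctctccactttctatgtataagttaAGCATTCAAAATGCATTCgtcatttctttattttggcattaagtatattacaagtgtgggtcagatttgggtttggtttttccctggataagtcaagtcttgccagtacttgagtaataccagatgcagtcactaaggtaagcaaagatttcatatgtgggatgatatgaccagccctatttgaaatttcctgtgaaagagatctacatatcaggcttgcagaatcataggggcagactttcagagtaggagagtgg
Skint4 second start (chr4:112081220-112081519, plus strand): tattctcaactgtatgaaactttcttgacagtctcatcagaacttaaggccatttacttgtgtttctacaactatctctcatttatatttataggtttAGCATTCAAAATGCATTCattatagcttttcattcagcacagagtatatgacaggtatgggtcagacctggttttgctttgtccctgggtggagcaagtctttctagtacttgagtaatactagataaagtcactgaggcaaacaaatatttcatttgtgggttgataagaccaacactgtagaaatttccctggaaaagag

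Skint7 and Skint8 formed another group, with 84.1% identity over 132 columns and a shared run of 51 bases. Skint1 and the first start of Skint4 stood outside these groups at the limits set, although Skint1 aligned with Skint3 over 131 columns at 66.4% identity. None of the 12 promoters held the letters GGATTA, the core bound by GTF2IRD1, on either strand, which 7.06% of all promoters held. The letters TATAAA of a TATA box, searched on both strands and anywhere in the window, were in 8 of the 12 promoters. They were in 13.6% of all promoters. The Skint promoters held 35.3% to 44.3% G and C, and the comparison was not adjusted for base content. The Skint10 promoter was without these letters. Of the 8, only that of Skint1 held them on the strand of the gene. The others, those of Skint9 and Skint11 included, held them only on the opposite strand, so a TATA box was not shown for them. An AP-1 site (TGANTCA, 7.81% of all promoters) and an interferon response element (3.44%) were each found in 1 Skint promoter, that of Skint11. The STAT palindrome (TTCNNNGAA, 8.30%) was in the promoters of Skint8 and Skint9. None of these motifs contains another, and a match or its absence describes only these windows.

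**Figure D1:**
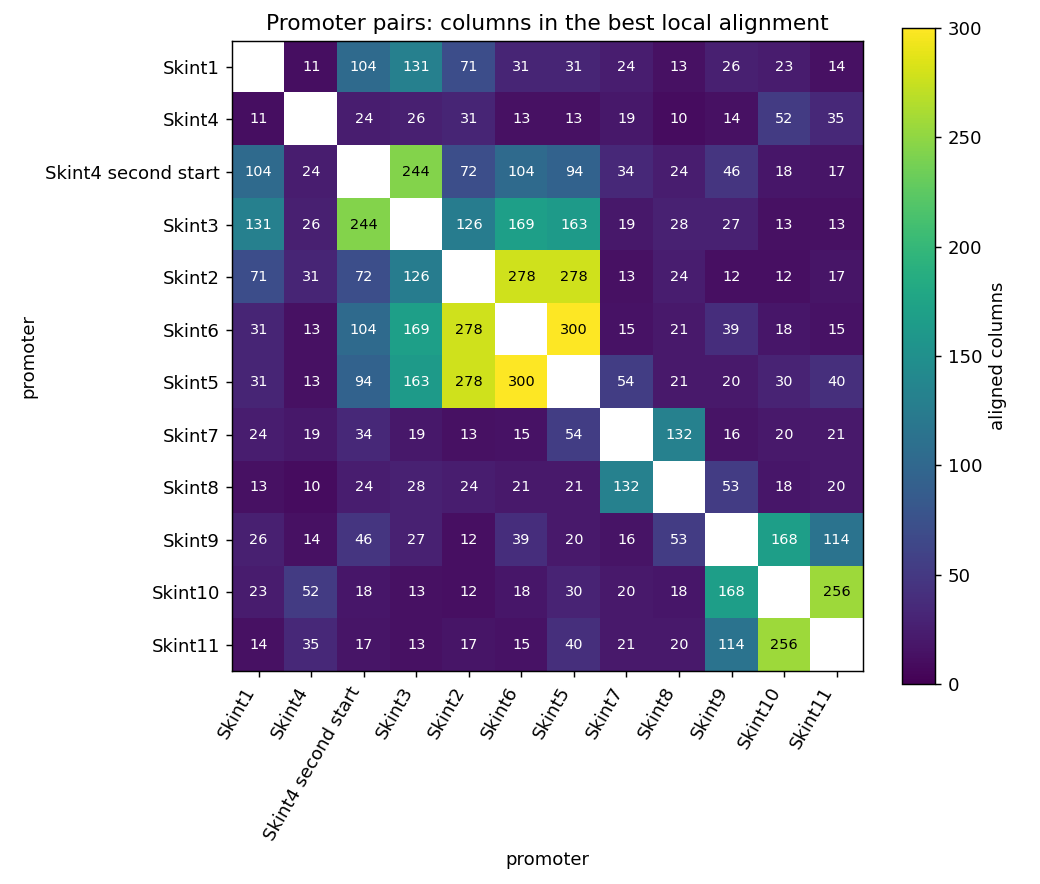
Pairs of the 12 Skint promoters (rows and columns), with the number of columns in their best local alignment as colour and figure. Skint9, Skint10 and Skint11 align over 114 to 256 columns with each other, Skint5 and Skint6 over 300, and Skint7 and Skint8 over 132.

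Because family members can share reads, the transcripts of each Skint gene were cut into overlapping stretches of 100 bases, the read length, and compared with all other annotated transcripts. Every stretch of Skint1, Skint3, Skint4, Skint5, Skint6, Skint9 and Skint10 was found in that gene alone. For Skint7, 3.49% of the stretches were also present in Skint8, and for Skint11 0.450% in Gm12813. Counts of Skint7 and Skint8 are therefore less certain, while the other 7 members could be told apart by exact sequence. Skint6 overlaps Gm12823 on the opposite strand and Skint4 overlaps the pseudogenes Gm12820 and Gm12815 on the opposite strand. Skint6 also overlaps the pseudogenes Gm12816 and Gm12818 on its own strand. The use of strand in counting is not stated, and the counts of Skint4 and Skint6 are uncertain to the extent that reads fall in these overlaps.

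All 8 members were low in lip RNA, between 0.640 and 19.0 CPM, and together they took 0.00201% to 0.00502% of the counts of a library. Per kilobase of annotated exon, the level in the WT was 3.95 ± 0.655 CPM for Skint9 (SD, n = 3 in each value of this order) and 3.42 ± 0.303 for Skint3. Then came Skint1 at 1.64 ± 0.204, Skint10 at 1.54 ± 0.402, Skint6 at 1.44 ± 0.511, Skint4 at 1.10 ± 0.0853, Skint5 at 0.867 ± 0.456 and Skint7 at 0.377 ± 0.0438. Over the WT libraries the values of Skint9 and Skint3 overlapped, and so did those of any neighbours in this order from Skint1 to Skint5. Within each WT library Skint9 lay above Skint3, by little in WT1 (3.25 against 3.15). Skint10 likewise lay above Skint6, by little in WT2 (1.604 against 1.601). All WT libraries of Skint3 lay above all of Skint1, and all of Skint5 above all of Skint7. Skint9 is annotated with 1.372 kb of exon and Skint10 with 3.738 kb, so this order rests on annotated ends. In the KO the order per kilobase was led by Skint3 at 3.63 ± 1.93 CPM, with Skint9 at 2.04 ± 0.555 and Skint1 at 1.71 ± 0.626, and Skint10 stood at 0.535 ± 0.0928, below Skint4 at 1.13 ± 0.412.

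Skint10 and Skint9 were the members in which every KO library lay below every WT library. Skint10 held 115, 141 and 159 counts in WT1, WT2 and WT3, or 4.17, 5.99 and 7.15 CPM, and 43, 67 and 35 counts in KO1, KO2 and KO3, or 2.20, 2.20 and 1.60 CPM. The highest KO value was thus well under the lowest WT value, and the WT mice, with an SD of 1.501 CPM, differed more among themselves than the KO mice, with an SD of 0.347 CPM. The log2 fold change was -1.52 with a standard error of 0.26, a KO mean at 0.347 of the WT mean. This lower level is the value for which the family was chosen. Without KO3 the ratio of means was 0.381.

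Skint9 held 4.46, 5.53 and 6.25 CPM in WT libraries and 3.22, 3.25 and 1.92 CPM in KO libraries. The groups did not overlap, and the mice stood in the same order as for Skint10, with WT3 highest and KO3 lowest. Its log2 fold change was -0.94 with a standard error of 0.26, a ratio of means of 0.517, or 0.598 without KO3. Over all tested genes, 18.1% had all 3 KO values below all 3 WT values, so non-overlap by itself was common.

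Skint11, whose promoter resembles those of Skint9 and Skint10 and which was not used in choosing the family, held 42, 47 and 60 counts in the WT and 24, 38 and 16 in the KO libraries. In CPM these were 1.52, 1.998 and 2.70 against 1.23, 1.25 and 0.731, again without overlap. The log2 fold change was -0.94 with a standard error of 0.32, which did not pass the test (adjusted p = 0.106 by edgeR's quasi-likelihood test), and the ratio of means was 0.516. Skint2, at 1.18 ± 0.306 CPM in WT libraries and 0.850 ± 0.246 CPM in KO libraries (SD, n = 3), and Skint8, at 1.29 ± 0.202 and 1.23 ± 0.407 CPM, had overlapping groups and adjusted p-values of 0.379 and 0.873 in the same test. The 3 Skint genes without overlap, of 11, were the 3 with the first kind of promoter, and 1 of them, Skint10, lay behind the choice. Such non-overlap was found in 18.1% of all tested genes. In the second group, Skint5 and Skint6 had log2 fold changes of -1.06 and -0.84, much like Skint9 and Skint11, though with overlap. Skint2, Skint3 and Skint4 of that group lay between -0.46 and 0.09. The match of non-overlap with promoter was seen after the values were known and was given no test.

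**Figure D2:**
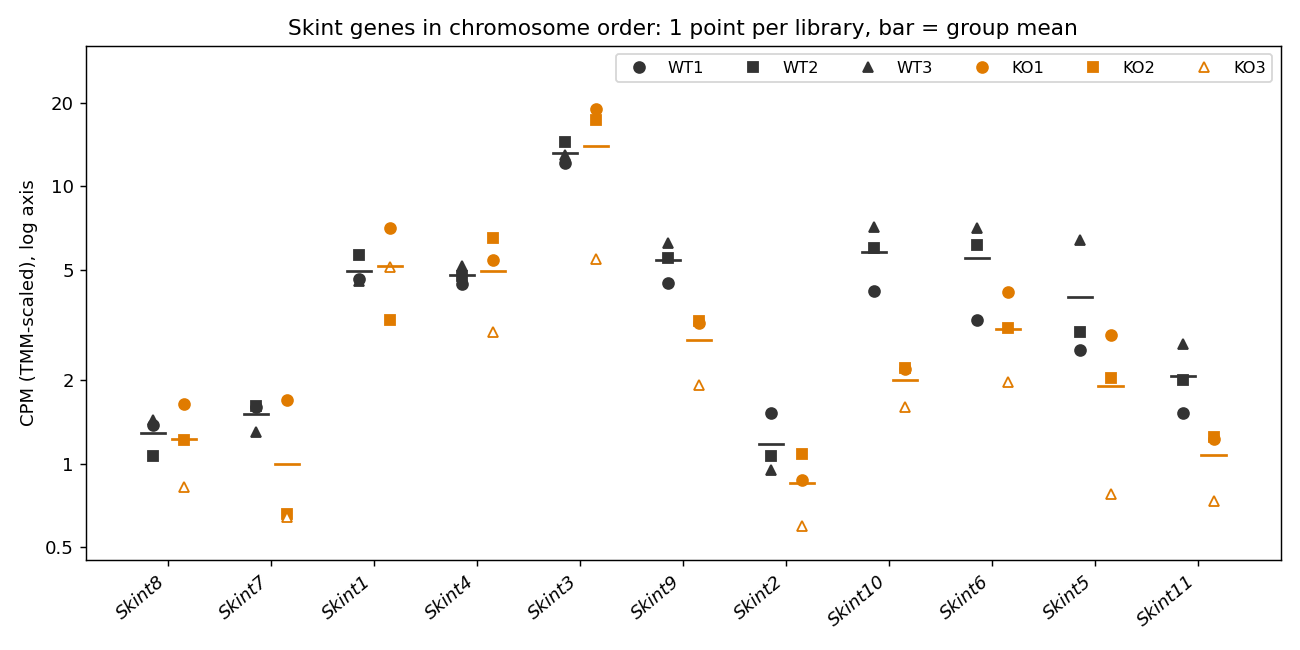
CPM of the 11 Skint genes on a log axis, in chromosome order, with WT libraries in black, KO libraries in orange (KO3 open) and bars at the group means. All KO points lie below all WT points for Skint9, Skint10 and Skint11, and KO3 is the lowest point in 7 of the 8 listed genes.

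Skint3, Skint1 and Skint4, neighbours on the plus strand, had nearly equal means in both genotypes. Skint3 was the most abundant member by CPM, with 12.1, 14.4 and 12.9 CPM in WT libraries and 19.0, 17.4 and 5.44 CPM in KO1, KO2 and KO3. KO1 and KO2 were thus above all WT libraries and KO3 was below all of them. The log2 fold change was 0.09 with a standard error of 0.40 over all libraries, but 0.47 without KO3, where it passed an adjusted p of 0.05, as did 16.9% of all genes in that direction. The mean over the 3 KO mice, 13.9 ± 7.41 CPM (SD), does not describe any of them.

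Skint4 behaved in a similar way, with 4.43, 4.76 and 5.17 CPM in WT libraries and 5.42, 6.48 and 2.97 CPM in KO libraries (log2 fold change 0.06, standard error 0.28, or 0.32 without KO3). Skint1 had 4.65, 5.65 and 4.54 CPM in WT libraries and 7.06, 3.29 and 5.12 CPM in KO libraries (log2 fold change 0.05, standard error 0.28). It was the only member in which KO3 was not the lowest library. The ratio of KO to WT means lay between 1.04 and 1.06 for these 3 genes, with wide scatter among the KO mice.

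Skint5 and Skint6, the adjacent long genes of 521.6 and 482.4 kb with the most similar promoters, were lower on average, but their groups overlapped. Skint6 had 3.30, 6.12 and 7.06 CPM in WT libraries and 4.14, 3.09 and 1.97 CPM in KO libraries (log2 fold change -0.84, standard error 0.36, or -0.60 without KO3). Skint5 had 2.58, 2.98 and 6.39 CPM in WT libraries and 2.92 and 2.04 CPM in KO1 and KO2, and 17 counts in KO3. WT3 carried the WT mean of Skint5, and without that library its log2 fold change was -0.54 in place of -1.06, while without KO3 it was -0.68. Skint7 was the least abundant member, with 44, 38 and 29 counts in the WT and 33, 20 and 14 counts in the KO libraries (log2 fold change -0.64, standard error 0.40). That value was -1.15 without KO1, -0.33 without KO2 and -0.42 without KO3. In CPM, KO1 at 1.69 lay just above the WT values of Skint7, which were 1.60, 1.62 and 1.30, and KO2 and KO3 lay below them.

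All 8 members passed the filter of at least 1 CPM in at least 3 libraries, Skint7 with the 3 WT libraries and 1 KO library and Skint5 with 3 and 2. At an adjusted p under 0.05 over 15009 tested genes, 1 of the 8 was called lower, Skint10, where 2.09% of all genes were, and 0 were called higher, where 4.38% were. With an unadjusted p under 0.05, 3 were lower, as were 16% of all genes, and 0 higher. edgeR's exact test, which called 7.15% of all genes lower, and DESeq2, which called 5.31% lower, each called 2 members lower and 0 higher. The call of Skint10 was lost when WT2, WT3, KO1 or KO2 was left out, and its log2 fold change then lay between -1.71 and -1.34 over all 6 libraries left out in turn. Since Skint10 is the gene behind the choice, nothing is read from this count. Over the 8 members the median log2 fold change was -0.74, beside -0.02 over all tested genes, and 5 were negative, as were 52% of all genes.

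**Figure D3:**
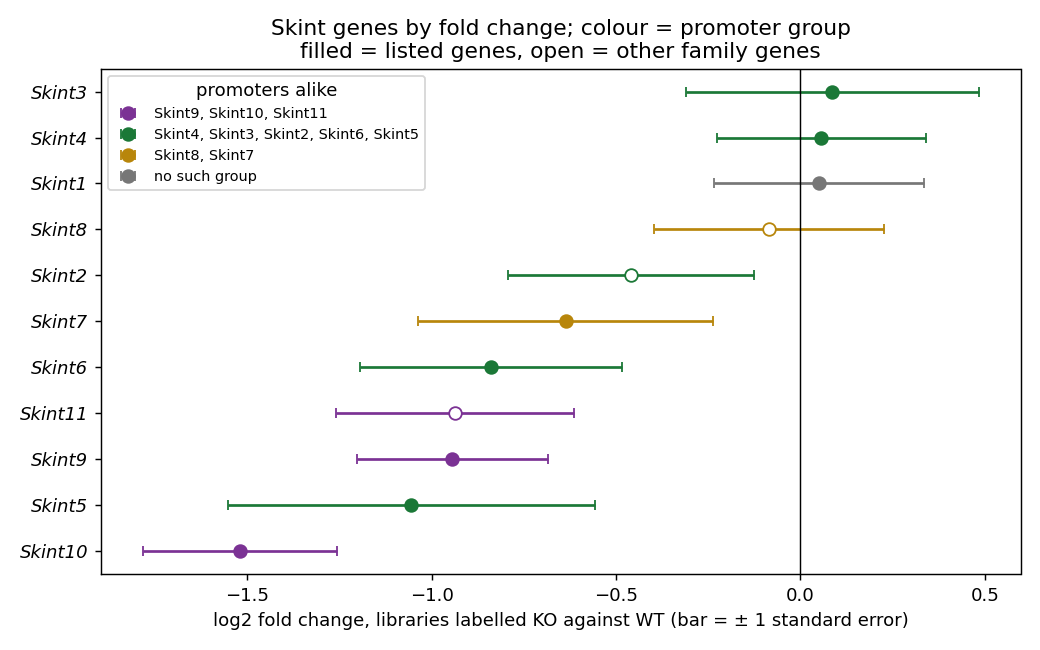
Log2 fold change of each Skint gene, libraries labelled KO against WT, with bars of 1 standard error; filled points are the 8 listed genes and colours mark promoters that align (Skint4 by its second start). Skint10 is lowest at -1.52, Skint9 and Skint11 are both at -0.94, and Skint1, Skint3 and Skint4 lie near 0.

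The family as a whole was less shifted than Skint10. The summed level of the 8 members was 37.3, 47.1 and 50.8 CPM in WT libraries and 45.7, 38.4 and 20.4 CPM in KO libraries, or 45.05 ± 6.96 against 34.8 ± 13.0 CPM (SD, n = 3). The ratio of means was 0.773, and 0.933 without KO3, so the lower mean rested largely on KO3. In 7 of the 8 members KO3 was the lowest of the 6 libraries, as it was in 17.8% of all tested genes. KO3 was therefore low across this gene family, including members that were high in KO1 and KO2.

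Ratios of counts between members do not depend on how libraries are scaled. Skint10 made up 11.2%, 12.7% and 14.1% of the Skint counts in the WT libraries and 4.82%, 5.74% and 7.83% in KO1, KO2 and KO3. Skint9 made up 11.97%, 11.7% and 12.3% in the WT and 7.05%, 8.48% and 9.40% in the KO libraries. Both shares were lower in every KO library than in any WT library, KO3 included, although KO3 had fewer Skint counts in all. The share of Skint4 was higher in each KO library, at 11.9%, 16.9% and 14.5%, than in the WT, at 11.9%, 10.1% and 10.2%, by a very small margin between KO1 and WT1. Skint3 made up 25.4% to 32.5% of the Skint counts in the WT, 41.7% and 45.2% in KO1 and KO2, and 26.6% in KO3.

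Against Skint9, which has a similar promoter, Skint10 gave count ratios of 0.935, 1.08 and 1.14 in the WT and 0.683, 0.677 and 0.833 in the KO libraries. Each Skint9 count thus had fewer Skint10 counts beside it in every KO library than in any WT library. Against Skint3 the ratios were 0.344, 0.416 and 0.554 in the WT and 0.116, 0.127 and 0.294 in the KO libraries. They did not overlap with Skint1, Skint4 or Skint6 as the denominator either, and overlapped with Skint5 and Skint7. Of all 28 pairs of members, those with Skint10 included, 10 had ratios without overlap. Some of these were pairs without Skint10, such as Skint3 with Skint5 and Skint4 with Skint9. As the ratios of Skint10 include the value behind the choice of family, they are descriptions.

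**Figure D4:**
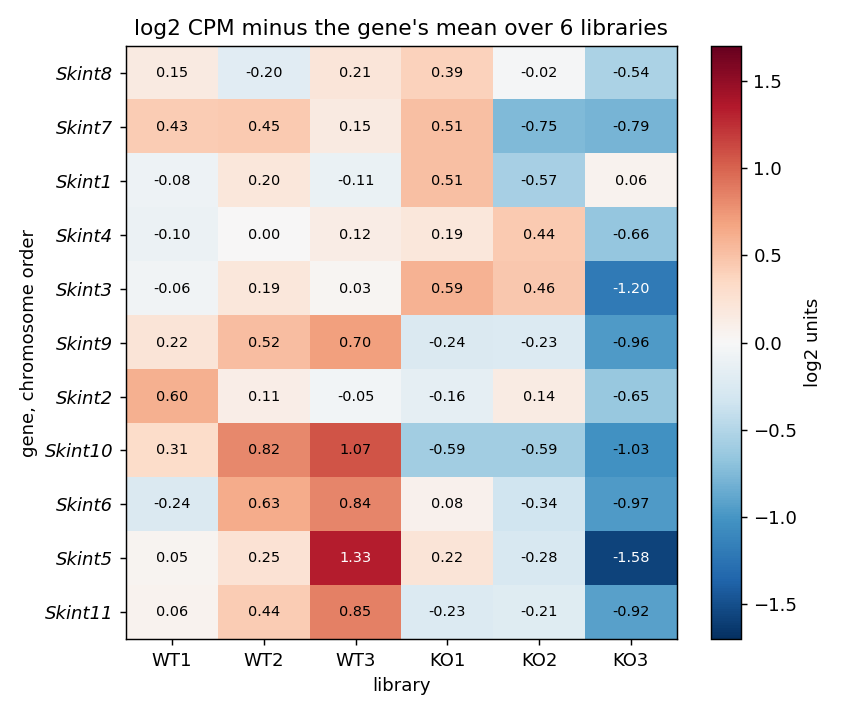
Log2 CPM of each Skint gene minus its mean over the 6 libraries, with libraries in columns and genes in chromosome order. Skint9, Skint10 and Skint11 are positive in the 3 WT and negative in the 3 KO libraries, and the column of KO3 is negative in every gene but Skint1.

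The genes nearest to Skint10 and Skint9 in pattern were ranked by the root mean square difference of log2 CPM, each gene centred on its own mean, over the 6 libraries. The nearest of all tested genes to Skint9 was Skint11, at 0.10 log2 units, ahead of Gm26823 at 0.13, A430106G13Rik at 0.14, Vwa5b2 at 0.15 and Bglap3 at 0.15. For Skint10 the nearest were 1110057P08Rik at 0.21, Tac4 at 0.25, Npr3 at 0.27, Hsd17b14 at 0.28 and F3 at 0.28. Each was lower in every KO library than in any WT library, as were 18.1% of all tested genes. Since they were picked for likeness to Skint10, this largely follows from the ranking and is no result about them. Skint9 lay 0.29 from Skint10 with 7 genes of 15009, counting Skint10 itself, nearer, and Skint11 lay 0.30 from it. Skint3, by contrast, lay 0.83 from Skint10, and 8600 genes, again with Skint10 itself, were nearer.

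Within 500 kb of the 8 members, 4 other protein-coding genes are annotated, all beyond the ends of the Skint cluster. Trabd2b, a membrane metalloprotease gene downstream of Skint11, rose from 37.5, 46.3 and 34.5 CPM in WT libraries to 89.6, 75.6 and 72.5 CPM in the KO libraries (log2 fold change 1.01, standard error 0.16, adjusted p = 0.00987 by edgeR's quasi-likelihood test). Slc5a9, a sugar transporter gene on the other side, had a log2 fold change of -0.73 (adjusted p = 0.136), and Spata6 one of -0.19 (adjusted p = 0.421). Agbl4 did not pass the filter. Of the 3 tested neighbours of the cluster 1 was thus called, and it was higher where Skint10 was lower.

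Identity genes of the DETC, the T cells with which Skint proteins are linked, included none called in the quasi-likelihood test, in either direction. Of 20 such genes, 19 were in the table and 11 were tested. By edgeR 0 passed an adjusted p of 0.05, while at an unadjusted p under 0.05 there were 6 higher and 1 lower. The exact test called 2 higher and 1 lower, and DESeq2 2 higher and 0 lower. Over all tested genes, 16% were lower at an unadjusted p under 0.05, 7.15% by the exact test and 5.31% by DESeq2. The shares higher in these settings were not computed. Nothing is therefore read from such counts of higher genes, here or for the lists below. The median log2 fold change of the tested DETC identity genes was 0.67, as was that of the 5 tested alpha-beta T cell genes, so the median does not single out DETC. The listed DETC genes summed to 165 to 224 CPM in WT libraries and 117 to 187 CPM in KO libraries. Most of that sum was Thy1, which fibroblasts also make and which was the gene lower at an unadjusted p under 0.05, with 145, 118 and 172 CPM in WT1, WT2 and WT3 and 64.1, 66.9 and 121 CPM in KO1, KO2 and KO3. The sum and the median thus differed in direction. Cd3e, a chain of the T cell receptor complex, held 43, 16 and 37 counts in the WT and 19, 46 and 44 in the KO libraries, and Cd3g, another chain, 31, 28 and 39 against 20, 75 and 74 counts. Both overlapped between genotypes (adjusted p = 0.753 and 0.25).

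The receptor segments that mark DETC were rare. Trdv4 held 15, 17 and 11 counts in the WT and 24, 14 and 55 in the KO libraries, and Tcrg-C1 13, 15 and 22 against 22, 20 and 42 counts. Tcrg-V5, the gamma segment, held 5, 11 and 5 counts in the WT and 3, 2 and 2 in the KO libraries. Its KO counts were all below its WT counts but at or under the limit of 3 counts, and none of these 3 genes passed the filter. Klrk1, which encodes the NKG2D receptor, had a log2 fold change of 1.14 (adjusted p = 0.0967), Itgae 0.80 (adjusted p = 0.0732) and Il2rb 0.84 (adjusted p = 0.0952), with every KO library above every WT library, as in 13.5% of all genes.

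Among 7 tested DETC effector genes, 1 rose and 0 fell, with a median log2 fold change of 0.42. That gene was Fgf7, a keratinocyte growth factor that dermal fibroblasts also make, at 9.94, 12.1 and 8.32 CPM in WT libraries and 37.0, 31.99 and 23.3 CPM in KO libraries (log2 fold change 1.60, standard error 0.22, adjusted p = 0.00473). Of 9 tested keratinocyte genes for signals to DETC, 1 rose and 0 fell, Ephb2 (log2 fold change 0.82, adjusted p = 0.0419), and the median was 0.37. H60c, an NKG2D ligand of skin, had 15.03, 33.2 and 18.3 CPM in WT libraries and 81.8, 52.5 and 24.8 CPM in KO libraries (log2 fold change 1.26, adjusted p = 0.11). H60c in KO3 lay within the WT range, and KO1 and KO2 lay above it.

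The closest relatives of the Skint genes by protein family, the butyrophilins and B7 genes, included none called in the quasi-likelihood test. Of 20 genes, 17 were in the table and 9 were tested, and 0 passed in either direction, with 2 higher and 0 lower at an unadjusted p under 0.05 and 1 higher by the exact test and by DESeq2. The median log2 fold change was -0.08. Btnl9, a butyrophilin-like gene, had a log2 fold change of -0.32 (adjusted p = 0.387), and Vtcn1, a B7 gene, one of -0.28 (adjusted p = 0.343). The genes higher at an unadjusted p under 0.05 were Cd86 and Cd80, ligands of T cell costimulation. In these 2 of the 9 tested genes every KO library lay above every WT library, as in 13.5% of all tested genes. In 1, Vtcn1, every KO library lay below every WT library, as in 18.1% of all tested genes. Cd86 had a log2 fold change of 0.97 (adjusted p = 0.0917) and Cd80 one of 0.62 (adjusted p = 0.142). The difference between these genes and Skint10 was not tested.

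Keratinocyte genes were measured as the cell type that makes Skint proteins. The 10 basal keratinocyte genes, all tested, summed to between 11419 and 12343 CPM in WT libraries and between 11693 and 12955 CPM in KO libraries, with a median log2 fold change of -0.01 and 1 gene higher and 0 lower. That gene was Dst (log2 fold change 1.37, adjusted p = 0.0343), which also has forms in muscle and nerve. Of the 15 suprabasal genes, 3 rose, Ivl, Casp14 and Klk7, and 1 fell, and their sum was 24291 to 29397 CPM in WT libraries and 33242 to 50852 CPM in KO libraries. The gene that fell was Krt2, a keratin of the upper spinous layer, from 2546, 3105 and 2312 CPM to 125, 87.2 and 136 CPM (log2 fold change -4.52, adjusted p = 4.02e-05). Krt1 and Krt10, the main suprabasal keratins, had log2 fold changes of 1.18 (adjusted p = 0.0584) and 0.64 (adjusted p = 0.163). The basal sums overlapped between genotypes, and the suprabasal sums were higher in every KO library than in any WT library. Single basal genes went either way. Krt15 and Col17a1, 2 of the 10, were lower in every KO library than in any WT library, as were 18.1% of all tested genes. In 3 of the 10 every KO library was higher, as in 13.5% of all tested genes. The part of keratinocyte content in the Skint values was not tested.

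The summed hair follicle genes and the summed skeletal muscle genes were lower in every KO library than in any WT library, as Skint10 was. The 15 hair follicle genes summed to 9918 to 12671 CPM in WT libraries and 6204 to 8359 CPM in KO libraries, all with negative log2 fold changes (median -0.62), and 1 of them, Hoxc13, fell. At an unadjusted p under 0.05, 13 of the 15 were lower, by the exact test 6, by DESeq2 4 and without KO3 9. The 14 skeletal muscle genes summed to 15941 to 21213 CPM in WT libraries and 7636 to 12692 CPM in KO libraries (median -1.01), and Tnnt3 and Tnni2 fell. At an unadjusted p under 0.05 all 14 were lower, by the exact test 11, by DESeq2 10 and without KO3 12. KO3, the lowest library for the Skint sum, had the highest muscle sum of the KO libraries, 12692 CPM against 7636 in KO1 and 8175 in KO2. Its hair follicle sum of 8359 CPM was nearly equal to that of KO2, 8348 CPM, with KO1 at 6204 CPM. The part of tissue make-up in the Skint values was not tested.

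**Figure D5:**
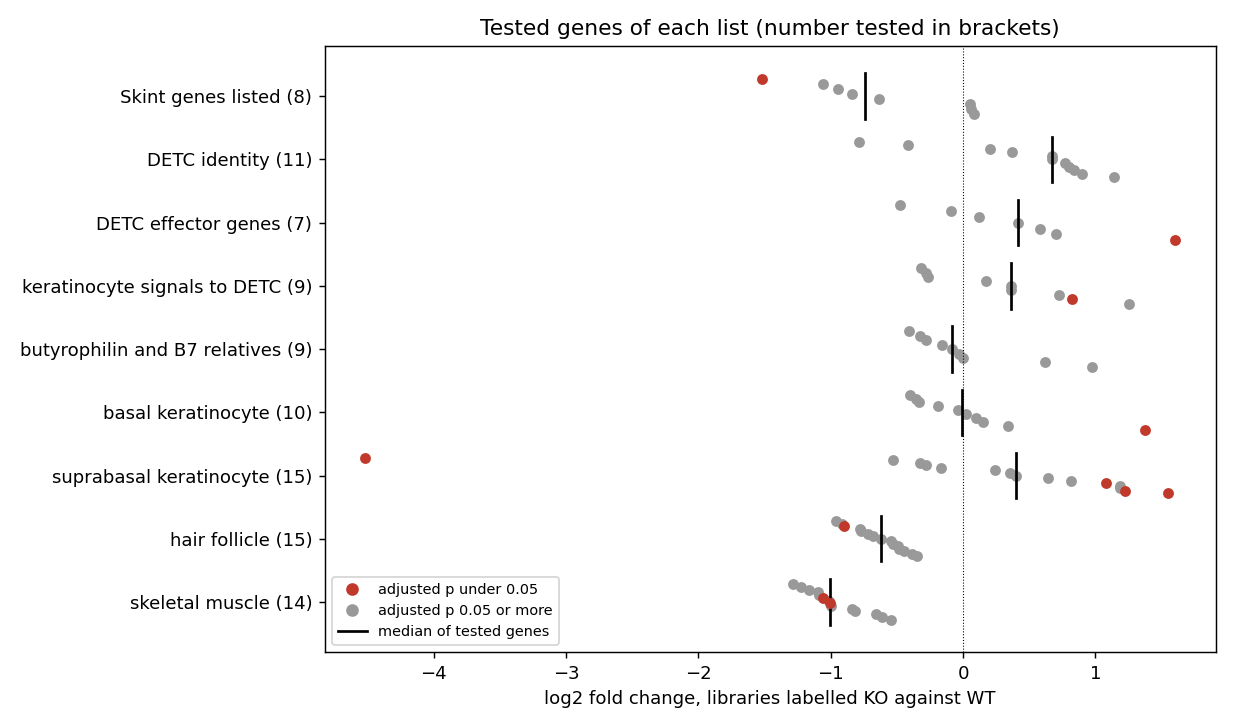
Log2 fold changes of the tested genes of 8 lists and of the 8 listed Skint genes, with a bar at each median and red points for genes with an adjusted p under 0.05. The Skint median is -0.74, those of the DETC and keratinocyte lists lie between -0.01 and 0.67, that of the butyrophilin and B7 genes is -0.08, and hair follicle and muscle genes lie at -0.62 and -1.01.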

How the data were processed

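Reads of 100 bases, paired, from 6 lip libraries were mapped by the authors to GRCm38 (TopHat2 2.0.8, Bowtie2 2.1.0, default options). The deposited table gives raw counts of uniquely mapped reads per gene symbol, made with HTSeq-count. The mode and strand setting of counting are not given in the sources used here. All columns were used. Where nothing states separate litters or extraction days, p-values measure the spread between these mice.

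Of 26814 symbols, the 15009 that reached 1 CPM in 3 or more libraries entered the test, with edgeR 4.0.16 in R 4.3.3: TMM scaling, estimateDisp, glmQLFit (legacy=FALSE) and glmQLFTest, Benjamini-Hochberg adjustment over all tested genes and a threshold of 0.05. CPM are TMM-scaled, and standard errors come from the fit. The study used edgeR's exact test, which was run as an alternative, with DESeq2 1.42.0, limma-voom (limma 3.58.1), the legacy fit, 2 other scalings, 2 other filters, a replicate block, and each library left out. The procedure was tested on simulated data.

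The members, the 13 gene lists and the motifs were chosen with earlier results of these data known. Named genes are the members, the other Skint genes, Gtf2ird1, coding neighbours within 500 kb, called and defining genes of the lists, and the 5 nearest genes in pattern to Skint10 and Skint9. Thy1, Cd80, Cd86, Krt4, Krt13, Krt15, Col17a1, Btnl9, Vtcn1, H60c, Klrk1, Itgae, Il2rb, Trdv4, Tcrg-C1 and Tcrg-V5 were named after their values were seen, and so were the promoter comparisons. Positions, exon lengths and transcripts come from GENCODE M21 (GRCm38) and promoters from RefSeq (GRCm38.p6). Promoters were aligned locally with Biopython 1.88 (match 1, mismatch -1, gap -3 and -1), and were grouped where any pair reached 70% identity over 100 columns.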

Additional observations from a re-analysis of the deposited data

How the results depend on the processing

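The call of Skint10 as lower was kept under all 9 alternatives of test, scaling, filter and block, with log2 fold changes between -1.52 and -1.47. With a library left out it lay between -1.71 and -1.34, and the call was lost without WT2, WT3, KO1 or KO2. For the 8 members, edgeR's exact test and DESeq2 each called 2 genes lower, Skint10 and Skint9 (log2 fold change of Skint9 -0.94 and -0.90), as did the fit without KO3, and the left-out fits ranged from 0 to 2 lower and from 0 to 1 higher, Skint3 without KO3. The log2 fold change of Skint9 lay between -1.07 and -0.73 with a library left out. Members near 0 changed sign: Skint1 was at -0.040 and Skint3 at -0.094 with limma-voom, and Skint3 at -0.076 with the replicate block. With a library left out, Skint5 lay between -1.39 and -0.54, Skint6 between -1.11 and -0.60 and Skint7 between -1.15 (KO1 left out) and -0.33 (KO2 left out). In the same fits Skint1 lay between -0.18 and 0.36, Skint3 between -0.13 and 0.47, Skint4 between -0.13 and 0.32, and Skint8 between -0.26 and 0.13, positive without KO3. The ratio of the summed Skint CPM ranged from 0.653 (KO1 left out) to 0.933 (KO3 left out), and between 0.768 and 0.796 under other scalings and filters. Over the 13 lists, 11 genes were called higher and 5 lower. The exact test called 23 higher and 23 lower and DESeq2 24 and 17. With a library left out, 3 to 22 were higher and 1 to 34 lower, the most without KO3. The deviations of WT1 and KO1 from their group means correlated at -0.19 over genes, those of WT2 and KO2 at 0.29 and those of WT3 and KO3 at 0.31. For mice of unlike number the values ran from -0.50 (WT2 with KO3) to 0.41 (WT2 with KO1). As the deviations are centred within 3 mice per genotype, these values cannot show whether replicate numbers pair the mice. The block for replicate number called 1 member lower and 0 higher, 11 list genes higher and 6 lower, and changed no call of a member. At these levels 3 counts, the limit that 0 allows, equal 0.0986 to 0.154 CPM, so members near 1 CPM rest on few reads. Skint2 did not reach the filter with WT1, WT2 or KO2 left out. The causes of these changes were not tested.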

Other observations

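Markers of other lip cells were measured beside the Skint genes. Cd207, the langerin gene of Langerhans cells, which share the epidermis with DETC, rose from 3.16, 4.29 and 3.55 CPM in the WT to 13.0, 13.3 and 12.4 CPM in KO1, KO2 and KO3 as labelled. Its log2 fold change was 1.81 with a standard error of 0.18 (adjusted p = 0.000932, edgeR's quasi-likelihood test). It was the 1 gene called of 7 tested Langerhans cell genes, whose median was 0.42. Of 5 tested alpha-beta T cell genes 1 rose, Foxp3, the factor of regulatory T cells, from 0.699 ± 0.0392 to 1.88 ± 0.431 CPM (SD, n = 3; log2 fold change 1.43, adjusted p = 0.0259 in the same test). Their median was 0.67.

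Of 9 tested wound and mucosal keratinocyte genes 2 rose, Krt16 (log2 fold change 1.95, adjusted p = 0.0365) and Sprr1b (1.93, adjusted p = 0.0269), and 0 fell, with a median of 1.47. At an unadjusted p under 0.05 there were 3 higher and 1 lower, by the exact test 4 higher and 2 lower, and by DESeq2 3 higher and 0 lower. In this list WT1 stood apart, with 1987 CPM of Krt4 against 58.3 and 9.40 CPM in WT2 and WT3. Of 11 sebaceous gland genes Scd3 rose (log2 fold change 3.19, adjusted p = 0.00251) and Awat1 fell (-1.09, adjusted p = 0.00409). The 10 dermal fibroblast genes had a median of -0.37 and 0 calls in the quasi-likelihood test, with 2 lower at an unadjusted p under 0.05 and 1 lower by the exact test and by DESeq2.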
